A study of Mus musculus with 24 samples.

Results

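The genes described here encode the machinery of intraflagellar transport (IFT) and the BBSome, read out in adipose tissue of mice with and without partial nephrectomy. Genes were taken by symbol. Names of the Ift and Bbs series were kept, together with Ttc8, Arl6, Mkks, Wdr19, Wdr35, Ttc21b, Cluap1, Traf3ip1, Dync2h1, Dync2li1, Kif3a, Kif3b and Kif17. This rule found 35 of the 54232 genes in the count table, and all 35 passed the filter of more than 10 counts over the 24 libraries, as did 26116 genes in total. The rule used no measured value. By known role, 13 of the genes belong to the IFT-B complex, 6 to the IFT-A complex, 5 to the motors of the transport, 8 to the BBSome with its GTPase Arl6, and 3 to the chaperonin-like proteins that assemble the BBSome.

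Cilia and flagella are built at their tips, and since they make no protein of their own, their parts are carried along the microtubules of the axoneme. Trains of IFT-B and IFT-A particles move outward on kinesin motors and return on the cytoplasmic dynein of cilia. The BBSome rides on these trains and moves membrane proteins out of the cilium. In adipose tissue a primary cilium is found on preadipocytes and is mostly lost from mature fat cells, and in the testis the same transport is needed to build the sperm flagellum. Loss of BBSome genes causes Bardet-Biedl syndrome, in which obesity is a leading sign.

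The animals were C57BL6 mice, 10 weeks old by the series description, with 6 mice in each of 4 groups. Mice of the groups Control and NaKtide had a sham operation, and those of PNx and PNx+NaKtide had a 5/6 nephrectomy, a model of renal failure. All mice carried a lentivirus that was injected into the abdomen and expresses its insert from the adiponectin promoter, which is active in adipocytes. The insert was GFP in Control and PNx, and NaKtide, a peptide made to block Na,K-ATPase signalling through Src, in NaKtide and PNx+NaKtide. RNA came from whole adipose tissue, so a smaller number of cells of a type and less RNA per cell cannot be told apart. Adipoq was counted in all 24 libraries, with group medians between 25.4 and 91.8 CPM (counts scaled to a common library size by TMM, as for all CPM below). Adipocyte markers differed in direction by group median. The median of Adipoq was 33.8 CPM in Control and 91.8 CPM in PNx, and that of Plin1 was 20.2 and 5.70 CPM. The summed level of 10 adipocyte markers, Adipoq included, had a median of 532 CPM in Control and 241 CPM in PNx. In the edgeR fit used below, all 10 nonetheless had higher estimates in PNx than in Control, with a median log2 fold change of 1.56. PNx replicate 6 had a sum of 6586 CPM.

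Libraries held 679250 to 2979505 counts, of which the 35 genes took 12123 in all, or 0.0290% of the counts. Where a gene was at 0, up to 3 counts are compatible with it, which is 0.739 CPM in the deepest library and 5.91 CPM in the shallowest. Strand was a second limit. Mt-Nd6, a mitochondrial gene on the strand opposite to its neighbours, had 21.0 to 194 times the count per kilobase that the other mitochondrial protein genes had. The strand setting of the counting was not stated. Whether the reads counted for a gene came from it or from its opposite-strand partner is therefore not known. Genes with an opposite-strand partner in their exons held 79.9% of all counts. Of the 35 genes, 28 share no exon base with an opposite-strand gene, and 7 do. These are Bbs12, Mkks, Arl6, Bbs4, Cluap1, Ift57 and Ift88, and their values are uncertain. Which strand the table counts is not known for any of the 35 genes, and were it the opposite one, the counts of the other 28 would be antisense reads too. Ift57, for example, had 166 counts, and its partner Gm15518, with 225 shared exon bases, had 4572. Bbs12, Mkks, Kif17 and Cluap1 also share exon bases with a gene on their own strand.

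Promoters of this gene family are known as targets of the RFX transcription factors, which bind the X-box, and the recorded RefSeq starts (GRCm38.p6) were searched from 250 bases before to 50 bases after the start. Promoters were given for 31 of the 35 genes. A full X-box, by the consensus of paired half-sites, was found in 3 of the 31 (9.68%) against 1.75% of 27025 genes, namely in Bbs1, Ift57 and Kif17. The half-site GTTGCC on either strand was found in 13 of the 31 (41.9%) against 14.1% of all genes, and each of the full matches contains it. The first 5 windows below are shown because their genes are among the 10 of smallest p-value in the comparison of PNx with Control described later, and that of Kif17 because it holds a full X-box. They are printed on the strand of the gene, the half-site is in capitals, and GGCAAC is its reverse complement.
Bbs7 (chr3:36613493-36613522, minus strand): gaatgcgccccgGTTGCCttggaaaccggc
Ift27 (chr15:78174073-78174102, minus strand): gggttgatgatgGTTGCCaggagcctgttt
Ift140 (chr17:25015965-25015994, plus strand): gcgtgttgtgacGGCAACctcgcgcccttg
Wdr35 (chr12:8974029-8974050, plus strand): tgggcggcggtgGTTGCCaggc
Dync2h1 (chr9:7177009-7177034, minus strand): gcgacggagcttGGCAACtgctgagt
Kif17 (chr4:138262166-138262195, plus strand): gacgtcacggagGTTGCCcagcaacggcga
The capitals begin 121 bases before the start in Bbs7, 109 before in Ift140 and 73 before in Kif17, and 40 bases after it in Wdr35. These matches are letters in a window. They do not show that a factor was bound.

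Transcript levels are compared between genes only as FPKM, the measure per transcript length and library depth that the authors deposited. The strand limit given above applies to each of these values. Ift20, an IFT-B subunit that also sits at the Golgi, had the highest mean over the 24 libraries, 12.4 FPKM. It was followed by Traf3ip1 with 9.01, Bbs2 with 5.13, Cluap1 with 3.94 and Kif17 with 3.62. At the other end were Dync2h1 with 0.128, Bbs10 with 0.111 and Mkks with 0.0800. Mkks and Bbs10 are both chaperonin-like proteins of BBSome assembly, and the third of them, Bbs12, had 0.270 FPKM. The median of the 28 genes without an opposite-strand partner was 0.996 FPKM, against 0.897 for 11957 protein-coding genes without one. The 7 with a partner had a median of 1.18 FPKM, against 3.32 for 5020 such protein-coding genes.

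**Figure D1:**
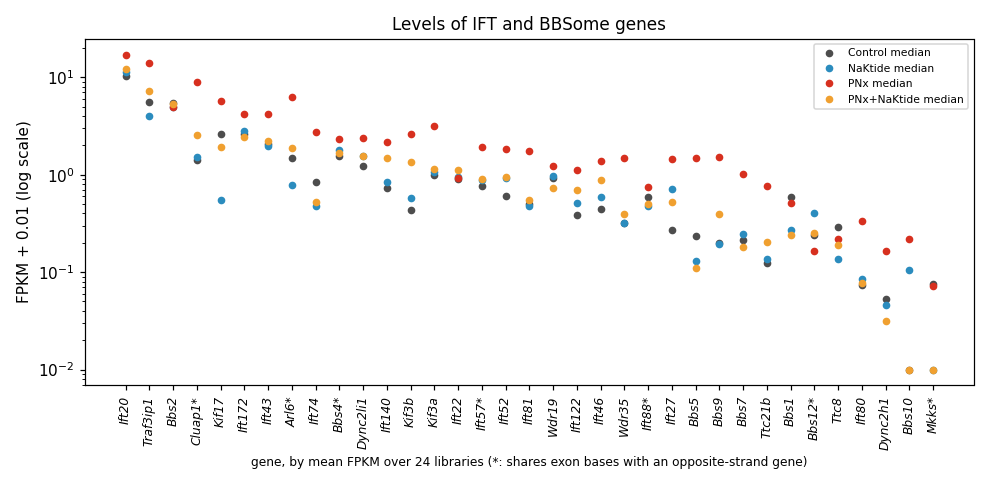
Median FPKM of each of the 35 genes in each group (6 libraries each), on a log axis after adding 0.01, with genes ordered by their mean over 24 libraries. Ift20 stands at the top with a mean of 12.4 FPKM and Mkks at the bottom with 0.0800, and the PNx median lies above the other 3 for most genes between.

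The first comparison was PNx with Control, which asks what renal failure did in fat that carries GFP. Estimates for 31 of the 35 genes were higher in PNx and 4 were lower, as were 15850 and 10263 of the 26116 genes tested. The median log2 fold change was 1.05 against 0.36 for all genes tested. Bbs10 and Mkks, among the 31, passed the count filter only through their PNx counts (9 of 18 and 8 of 14). Their estimates here and in later contrasts with PNx are therefore not independent of the filter. None of the 35 passed a BH-adjusted p-value of 0.1 in the edgeR test, in which 0.0766% of all genes passed, all lower in PNx. The smallest adjusted p-value among them was 0.134. At an unadjusted p-value under 0.05, 13 of the 35 (37.1%) were higher and 0 lower, against 18.5% of all genes higher at that level. In either direction the share was 37.1% against 25.4% of all genes. With PNx replicate 1 left out it was 7 genes (20% against 15.8% of all genes), with replicate 3 left out 6 (17.1% against 16.6%), and with replicate 4 left out 20 (57.1% against 39.2%).

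The IFT-A complex, which serves the return transport and the entry of membrane receptors, had the highest median of the roles, 1.62 on the log2 scale, with 3 of 6 genes at an unadjusted p-value under 0.05. Beside this count and those of the other roles below, 18.5% of all genes were higher at that level. Ttc21b (chr2:66184327-66256617, minus strand) had 2.32, 2.50, 0.592, 0.583, 1.85 and 0.669 CPM in Control replicates 1 to 6. In PNx it had 12.1, 7.67, 14.9, 0, 0.594 and 3.02 CPM. PNx replicates 1, 2, 3 and 6 thus lay above the highest Control library, and replicates 4 and 5 among or below them, and the groups overlapped. The log2 fold change was 2.13 ± 0.77 (SE), with an adjusted p-value of 0.138. Ift140 (chr17:25016085-25099495, plus strand) ran from 1.78 through a median of 6.52 to 10.7 CPM in Control. In PNx it was at 45.6, 18.2 and 47.4 CPM in replicates 1 to 3 and between 2.38 and 6.42 CPM in the others. Its log2 fold change was 1.74 ± 0.69, with an adjusted p-value of 0.149. Wdr35, a part of the same complex, had at most 4.18 CPM in Control and 20.7, 11.7 and 21.2 CPM in PNx replicates 1 to 3, for 2.03 ± 0.84 on the log2 scale and an adjusted p-value of 0.155. Wdr19, a core subunit of IFT-A, gave a different picture. Its 3 highest PNx libraries were replicates 4, 5 and 6, with 21.2, 13.1 and 12.1 CPM, and its log2 fold change was 0.29 ± 0.36.

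The IFT-B complex carries tubulin and other building parts outward. All 13 of its estimates were positive, with a median of 1.05, and 5 of them were at an unadjusted p-value under 0.05. Ift81 and Ift74, which together form a tubulin-binding module, were both among them. Ift81 (chr5:122550204-122614518, minus strand) had 6.03, 3.50, 1.18, 0.583, 3.70 and 3.35 CPM in Control and 19.0, 10.9, 23.2, 0.785, 4.75 and 4.91 CPM in PNx. Only PNx replicates 1 to 3 were above all Control libraries, and replicates 4 to 6 were inside their range. The log2 fold change of 1.78 ± 0.59 had the smallest p-value of the 35 (adjusted p-value 0.134). Ift74 (chr4:94614491-94693229, plus strand) had at most 5.55 CPM in Control, 27.4, 8.08 and 33.6 CPM in PNx replicates 1 to 3, and 0, 1.19 and 3.02 CPM in replicates 4 to 6. With 2.15 ± 0.86 it had the highest estimate of the 35 genes (adjusted p-value 0.15).

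Ift27, a small GTPase of the IFT-B train through which the BBSome leaves the cilium, had 0 to 1.85 CPM in Control and 0.785 to 6.79 CPM in PNx, with the highest value in replicate 6. Its log2 fold change was 1.82 ± 0.73 with an adjusted p-value of 0.152. Cluap1, which shares 419 exon bases with opposite-strand genes, ran from 1.78 to 12.3 CPM in Control and stood at 23.9, 20.6 and 20.9 CPM in PNx replicates 1 to 3 (1.29 ± 0.56, adjusted p-value 0.167). Traf3ip1, an IFT-B subunit that binds microtubules, was at 82.8, 88.4 and 60.8 CPM in PNx replicates 1 to 3, above the Control maximum of 31.1. In PNx replicates 4 and 5 it was at 7.85 and 8.32 CPM, below the Control minimum of 14.2. Its log2 fold change was 0.93 ± 0.57 with an adjusted p-value of 0.28. Ift20 was the flattest of the 35. It ran from 11.7 through 17.5 to 30.2 CPM in Control and from 14.7 through 18.3 to 29.8 CPM in PNx, and its log2 fold change was 0.07 ± 0.35.

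The 5 motor genes had a median of 1.16, all estimates were positive, and 2 were at an unadjusted p-value under 0.05. Kif3b (chr2:153291413-153333390, plus strand) encodes a motor subunit of the kinesin that pulls the trains outward. It had 8.36 CPM in Control replicate 1 and 1.78 to 3.50 CPM in the other Control libraries. In PNx it had 29.6, 14.9 and 29.8 CPM in replicates 1 to 3 and 2.36, 0.594 and 7.93 CPM in replicates 4 to 6 (log2 fold change 1.96 ± 0.68, adjusted p-value 0.136). Dync2h1, the heavy chain of the dynein for the way back, had at most 1.39 CPM in Control, and 8.62, 2.02 and 11.4 CPM in PNx replicates 1 to 3 (2.12 ± 0.91, adjusted p-value 0.161). Kif17, an accessory kinesin, was counted highest of the motors, at 6.79 to 21.4 CPM in Control. It stood at 52.5, 31.1 and 53.7 CPM in PNx replicates 1 to 3 and at 3.40 to 7.72 CPM in the other 3, so that the spread inside PNx was far wider than the difference between groups (0.89 ± 0.78).

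The BBSome genes did not move as one. Bbs9 (chr9:22475715-22888280, plus strand), a scaffold subunit, had 0 to 2.79 CPM in Control. In PNx it had 11.6, 12.5 and 10.8 CPM in replicates 1 to 3 and 1.57, 1.78 and 3.40 CPM in replicates 4 to 6. The log2 fold change was 2.14 ± 0.74 with an adjusted p-value of 0.136. Bbs7 had at most 2.79 CPM in Control and 6.90, 4.85 and 7.32 CPM in PNx replicates 1 to 3 (1.69 ± 0.63, adjusted p-value 0.141), and Bbs5 followed with 1.73 ± 0.79 (adjusted p-value 0.177). Arl6, the GTPase that recruits the BBSome to membranes, was at 17.2, 17.8 and 16.7 CPM in PNx replicates 1 to 3, above a Control maximum of 7.36 (1.53 ± 0.85, adjusted p-value 0.24). Bbs2, Bbs4, Bbs1 and Ttc8 did not share this pattern. Bbs2, the most counted BBSome gene, ran from 16.7 through 20.4 to 27.0 CPM in Control and from 8.68 through 14.5 to 26.7 CPM in PNx, with its highest PNx value in replicate 4 (log2 fold change -0.45 ± 0.40). Bbs1 gave -0.44 ± 0.61 and its sign turned under DESeq2 size factors (0.0123), and Bbs4 gave 0.17 ± 0.35. The median of the 8 genes was 0.85, and 3 of them were at an unadjusted p-value under 0.05.

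The 3 chaperonin-like genes had few counts. Bbs12 had 26 counts over all libraries, Bbs10 had 18 and Mkks had 14, and none of them was at an unadjusted p-value under 0.05. Bbs12 had the lowest estimate of the 35, -1.40 ± 0.80, from a median of 0.604 CPM in Control and 0.249 CPM in PNx, both below the level of 3 counts in each library.

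**Figure D2:**
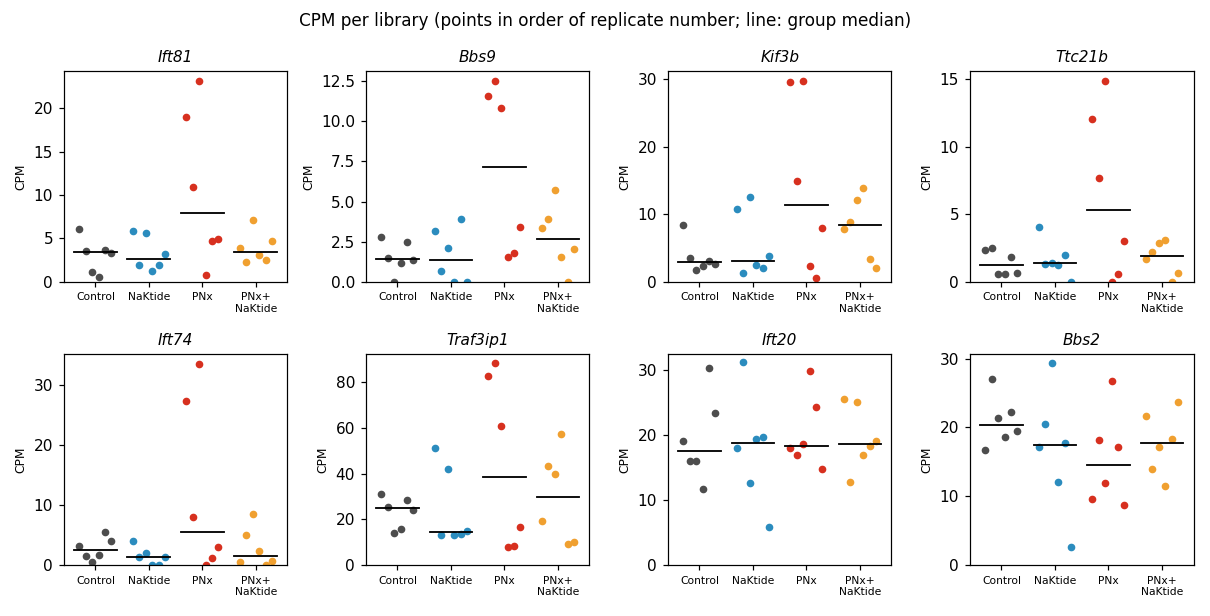
CPM of 8 genes in each library, by group, with points in order of replicate number from left to right and a line at the group median (n = 6). In PNx, replicates 1 to 3 of Ift81, Bbs9, Kif3b, Ttc21b, Ift74 and Traf3ip1 lie above all Control libraries and replicates 4 and 5 do not, while Ift20 and Bbs2 show no such gap.

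The split inside PNx ran through the whole set. PNx replicates 1, 2 and 3 held 2269, 963 and 2293 counts of the 35 genes, or 45.6% of such counts in the series from 19.1% of all its counts. Their summed levels were 559, 389 and 579 CPM. PNx replicates 4, 5 and 6 had 159, 162 and 225 CPM, the Control libraries had 127 to 231, the NaKtide libraries 111 to 282 and the PNx+NaKtide libraries 116 to 304 CPM. In PNx replicates 1 to 3, 24, 18 and 25 of the 35 genes (68.6%, 51.4% and 71.4%) lay above the highest Control library, against 37.0%, 34.1% and 36.2% of all genes tested. In replicates 4, 5 and 6 the numbers were 2, 1 and 12, or 5.71%, 2.86% and 34.3%, against 13.1%, 10.4% and 32.9% of all genes. Above the highest Control library in all of replicates 1 to 3 were 18 genes, or 51.4% against 27.6% of all genes tested, among them 4 of the 6 IFT-A genes (Ift122, Ift140, Ttc21b and Wdr35). In none of the 3 were 10 genes, or 28.6% against 56.6% of all genes, which include Bbs1, Bbs2, Bbs4, Ttc8, Wdr19, Ift20 and Ift52.

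**Figure D3:**
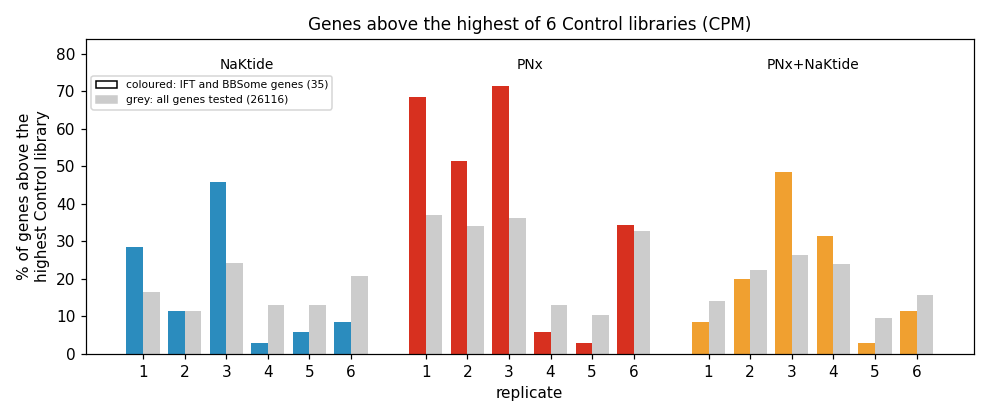
Percentage of the 35 genes (coloured bars) and of all 26116 genes tested (grey bars) that lay above the highest of the 6 Control libraries, for each library of the other groups. PNx replicates 1, 2 and 3 reach 68.6%, 51.4% and 71.4% against 37.0%, 34.1% and 36.2% of all genes, and PNx replicates 4 and 5 stay at 5.71% and 2.86%.

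Without PNx replicates 1, 2 and 3 the median log2 fold change of the 35 genes was 0.06, and 4 of them (11.4%) were at an unadjusted p-value under 0.05 in either direction, against 11.1% of all genes. The labels give no batch for these libraries. Replicates 1 and 3 were separate libraries, since their counts differed by 12.8 times the sampling variance over all genes, though only by 1.11 times over the members. PNx replicate 6 differed otherwise, with an adipocyte marker sum of 6586 CPM where the other PNx libraries had 217 to 438. NaKtide replicate 6 had 5062 CPM of adipocyte markers, where the other NaKtide libraries had 250 to 868. Its skeletal muscle markers summed to 4676 CPM, against 13.3 to 29.5 CPM in the others. Without PNx replicate 6 and NaKtide replicate 6, 34 of the genes could be tested. Of these, 9 passed an adjusted p-value of 0.1, all higher in PNx, against 15.4% of all genes called higher.

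**Figure D4:**
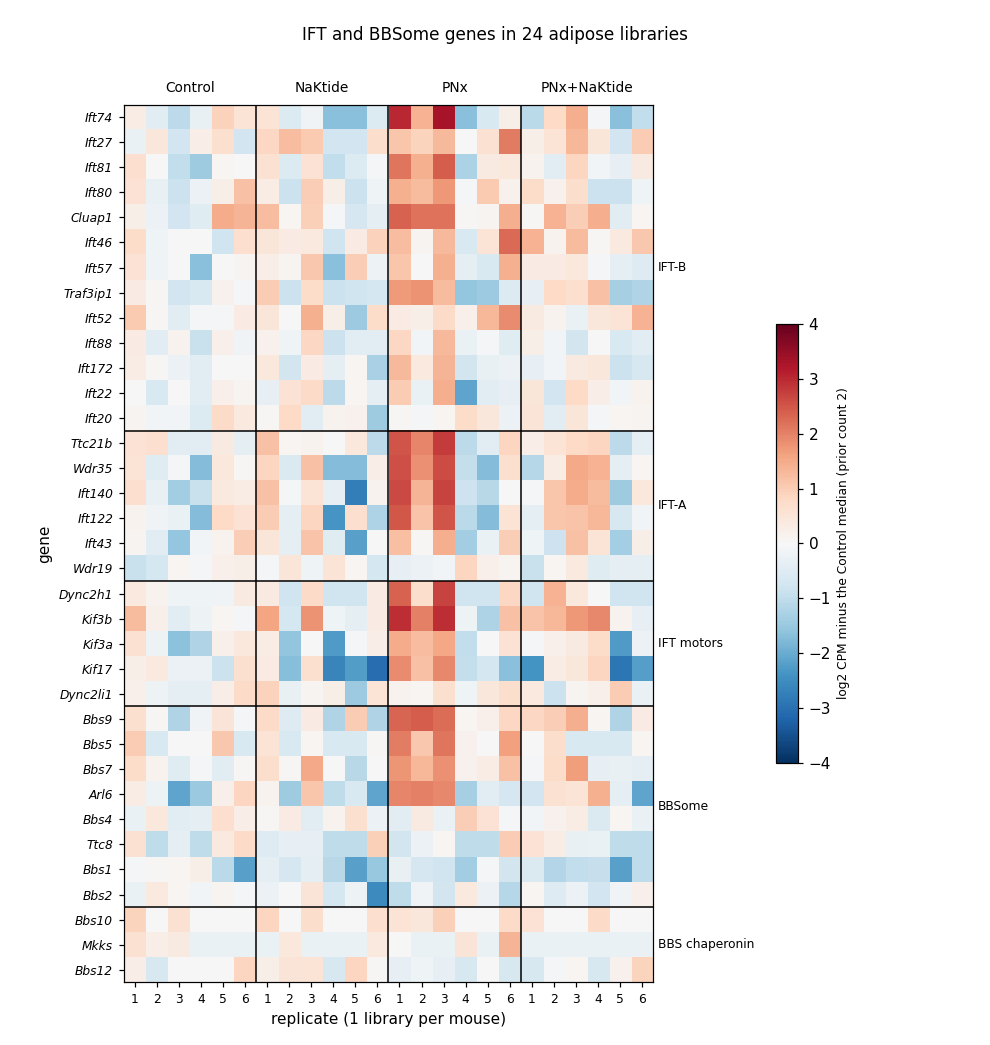
Log2 CPM of the 35 genes in 24 libraries, minus the median of the 6 Control libraries, with genes grouped by role and ordered by fold change in PNx. The columns of PNx replicates 1, 2 and 3 are red in most rows of IFT-B, IFT-A and motors and in 4 BBSome rows, and PNx replicates 4 and 5 are not.

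Other tools set the boundary differently. DESeq2 called 24 of the 35 genes, all higher in PNx, against 26.3% of all genes called higher, and limma voom with sample weights called 23 higher against 32.6%, and 2 lower (Bbs2 and Mkks) against 30.9%. Scaling mattered, since over all genes the median was 0.36 under TMM, 0.76 under DESeq2 size factors and 0.70 under the library totals alone. Relative to these, the median of the 35 genes was 0.69, 0.85 and 0.77 higher.

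Some marker lists of other cell types were high in the same libraries, and others were low there. The summed level of 10 testis germ cell markers, with meiotic genes and the protamines of sperm chromatin, was 908, 911 and 991 CPM in PNx replicates 1 to 3 and 654 CPM in replicate 6. It was 188 and 173 CPM in PNx replicates 4 and 5, 143 to 545 CPM in Control, 240 to 659 CPM in NaKtide and 103 to 827 CPM in PNx+NaKtide. Of the defining markers, Prm1 was above 0 in all libraries, Ddx4 was at 0 in 9 and Dazl in 16. The 3 libraries highest in this sum were the 3 highest in the summed IFT and BBSome genes in Control (1, 5 and 6), in PNx (1, 2 and 3) and in PNx+NaKtide (2, 3 and 4), and 2 of 3 coincided in NaKtide. In Control this match was shared by the adipocyte, epididymis, fibroblast progenitor, endothelium and mesothelium sums. NaKtide replicate 6, the highest of its group in the germ cell sum at 659 CPM, had the lowest summed IFT and BBSome level of the series, 111 CPM. Motile axoneme genes encode the beating core of sperm flagella and of motile cilia. The 29 of them found in the table summed to 1182, 1100 and 1259 CPM in PNx replicates 1 to 3 and to 560 to 876 CPM in Control. Their 3 highest libraries were those of the 35 genes in PNx and PNx+NaKtide, and 2 of 3 coincided in NaKtide and Control. The 10 multiciliated cell markers summed to 112, 99.7 and 108 CPM in PNx replicates 1 to 3, against 46.2 to 61.7 CPM in Control, with Gmnc at 0 in 19 libraries. Members of that list differed in direction, since the median of Mcidas was 14.4 CPM in Control and 2.62 CPM in PNx and that of Ccno 10.2 and 1.82 CPM, and its median log2 fold change was 0.34, with 3 of 10 estimates negative. Epididymis markers were low in PNx replicates 1 to 3, at 20.2, 185 and 513 CPM against 611 to 1864 CPM in Control, although in Control and in NaKtide their 3 highest libraries were those of the 35 genes. Adipocyte markers were low there as well, at 235, 217 and 223 CPM in PNx replicates 1 to 3, against 273 to 814 CPM in Control. They summed to 247, 438 and 6586 CPM in PNx replicates 4, 5 and 6, and to 107 to 1145 CPM in PNx+NaKtide. Macrophage markers summed to 154, 259 and 172 CPM in PNx replicates 1 to 3, against 310 to 437 CPM in Control, and mesothelium markers to 6.90, 10.1 and 11.6 CPM, against 24.9 to 46.0 CPM. Markers of fibroblast progenitors were inside the Control range of 23.1 to 78.9 CPM, at 55.7, 54.1 and 42.6 CPM. The part of these cell types in the result was not tested.

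The second comparison was PNx+NaKtide with PNx, which asks what NaKtide in adipocytes did after nephrectomy. It uses the same PNx libraries as the first. Estimates were lower in PNx+NaKtide for 33 of the 35 genes, and for 16652 of the 26116 genes tested. The median was -0.86 against -0.37 for all genes. None passed the adjusted threshold in edgeR, as 0% of all genes did, and the smallest adjusted p-value was 0.357. At an unadjusted p-value under 0.05, 6 genes were lower, or 17.1% against 8.60% of all genes. They were Bbs5, Ift81, Ift74, Ttc21b, Mkks and Dync2h1. Mkks had 14 counts over all libraries, 8 of them in PNx and 0 in PNx+NaKtide. It passed the count filter only through its PNx counts, so its lower value is not independent of the filter. The same holds for Bbs10, among the 33 lower genes, with 9 of its 18 counts in PNx. With voom the estimate of Mkks had the opposite sign, 0.49. Bbs5 had 0.554, 1.67, 0, 0, 0 and 0.679 CPM in PNx+NaKtide and 5.91, 2.42, 6.31, 0.785, 0.594 and 4.15 CPM in PNx. The groups overlapped in PNx replicates 4 and 5, and the log2 fold change was -2.58 ± 0.86 (adjusted p-value 0.357). Ift81 ran from 2.23 through 3.47 to 7.14 CPM in PNx+NaKtide, against 0.785 through 7.90 to 23.2 CPM in PNx, for -1.44 ± 0.59 on the log2 scale (adjusted p-value 0.357).

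Ttc21b had at most 3.07 CPM in PNx+NaKtide (-1.86 ± 0.77) and Ift74 at most 8.57 CPM (-2.09 ± 0.86). Mkks was at 0 in all 6 PNx+NaKtide libraries and had 8 counts in PNx, which makes it at least 1.49-fold lower against the limit of 3 counts over the group, and with it at that bound the median of the 35 was -0.85. Ift20 again had the estimate nearest to 0, -0.05 ± 0.36. DESeq2 called 4 genes lower (Ift74, Ift81, Ttc21b and Ift172), against 4.76% of all genes, and voom called 15 lower, against 18.6%. The median was 0.07 without PNx replicates 1, 2 and 3. In either direction the 6 genes, Mkks among them, stood against 12.7% of all genes. They became 2 (5.71%) without PNx replicate 1 or replicate 3, against 8.15% and 8.03% of all genes, and 14 (40.0%) without PNx replicate 4, against 25.3%. With the PNx and PNx+NaKtide libraries fitted alone, 3 genes (8.57%) were at that level, against 8.64% of all genes.

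**Figure D5:**
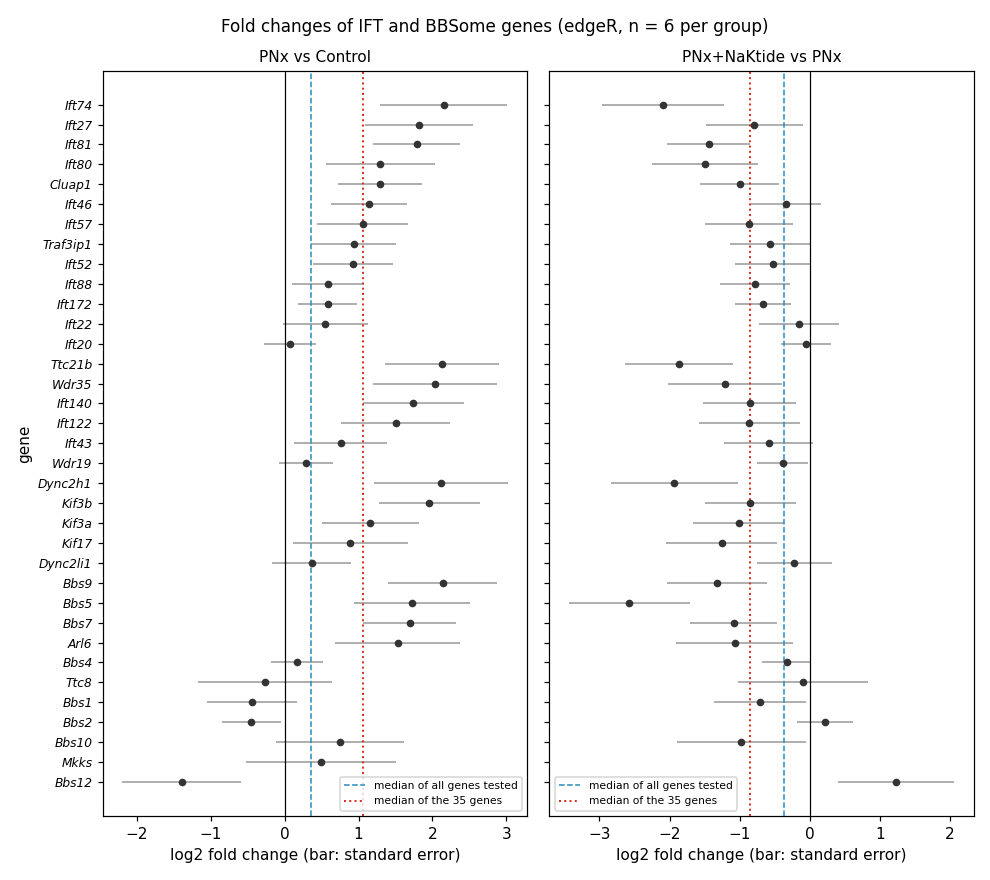
Log2 fold change ± SE of each gene in PNx against Control (left) and in PNx+NaKtide against PNx (right, which uses the same PNx libraries), with the median of the 35 genes (dotted) and of all genes tested (dashed). The medians are 1.05 against 0.36 on the left and -0.86 against -0.37 on the right, and Mkks, at 0 in all PNx+NaKtide libraries, is not drawn on the right.

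The interaction asks whether the effect of nephrectomy differed between mice with NaKtide and mice with GFP. Its estimates were negative for 30 of the 35 genes, and for 15967 of the 26116 genes tested. The median was -0.91 against -0.35 for all genes. No gene of the 35 passed the adjusted threshold in edgeR (0% of all genes) and 0 were at an unadjusted p-value under 0.05, against 5.79% of all genes in the lower direction. The smallest adjusted p-value was 0.567, for Bbs7 (-1.75 ± 0.91). Voom called 6 of the 35 lower (Cluap1, Ift80, Ift81, Ttc21b, Bbs7 and Bbs5), against 9.40% of all genes, and DESeq2 called 0, with 7 (20%) at an unadjusted p-value under 0.05 against 12.3% of all genes. Without PNx replicates 1, 2 and 3 the median was 0.20.

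The groups other than PNx lay close together. NaKtide against Control had a median log2 fold change of 0.11 (all genes 0.00), PNx+NaKtide against NaKtide had 0.04 (all genes 0.04) and PNx+NaKtide against Control had 0.17 (all genes 0.04). In each of the 3, edgeR called 0 of the 35 genes and 0% of all genes, and 0 of the 35 were at an unadjusted p-value under 0.05. DESeq2 and voom called 0 of the 35. Of all genes they called at most 0.896% in one direction (voom, lower in PNx+NaKtide against Control). The lowest unadjusted p-value in NaKtide against Control belonged to Ift27, with 1.14 ± 0.77 on the log2 scale. Individual libraries of these groups were nonetheless uneven, and NaKtide replicate 6, set apart above by its marker sums, is included in them. Traf3ip1 was at 51.4 and 41.9 CPM in NaKtide replicates 1 and 3 and between 13.3 and 14.9 CPM in the other 4. Kif17 was at 17.1 and 21.6 CPM in the same 2 libraries and between 0.647 and 3.32 CPM in the rest. In PNx+NaKtide, Kif17 was at 16.7, 18.6 and 25.3 CPM in replicates 2, 3 and 4 and between 0.832 and 2.04 CPM in replicates 1, 5 and 6. For Kif17 the high libraries of both groups were among the 3 with the highest germ cell marker sum. They were also among the 3 highest in the motile axoneme sum. In NaKtide the epididymis, multiciliated cell, fibroblast progenitor and mesothelium sums held them too. NaKtide replicate 6, the highest of its group in the germ cell sum at 659 CPM, had the lowest Kif17 there, 0.647 CPM.

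Other genes of the cilium were set beside the 35 for PNx against Control, and none of them passed the adjusted threshold in edgeR. Of all genes tested, 18.5% were higher at an unadjusted p-value under 0.05, and 1798 of 26116 were lower. Of 13 further IFT, BBSome and motor genes, 6 were higher at an unadjusted p-value under 0.05 and 0 lower, with a median of 1.35. Kifap3, the subunit that joins Kif3a and Kif3b to cargo, had 2.47 ± 0.81, and Hspb11, an IFT-B subunit, 2.63 ± 0.97. Of 27 basal body and ciliogenesis genes, 12 were higher and 0 lower, with a median of 1.27, led by 2700049A03Rik (3.13 ± 0.95) and Sclt1 (2.44 ± 0.75), a part of the distal appendages. Of the RFX factors on that list, Rfx2 had 2.35 ± 0.83, Rfx3 had 2.55 ± 0.90, Rfx1 had 0.16 ± 0.32 and Rfx5 had 0.59 ± 0.35. They were picked out after their values were seen.

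The gate of the cilium behaved less uniformly. Of 24 transition zone genes, 4 were higher and 1 lower at that level, and the median of 0.37 was close to that of all genes, 0.36. For each list here, 18.5% of all genes were higher at that level. Cep290, a core component of the gate, had 1.16 ± 0.38, and Rpgrip1l had 2.20 ± 0.73. Of 19 genes of the ciliary membrane and Hedgehog signalling, which is received at the cilium, 2 were higher and 1 lower, with a median of 0.74. Pkd2, a cation channel, had 1.32 ± 0.57, and Pde6d, which carries lipidated cargo, 1.52 ± 0.68. Of 28 motile axoneme genes tested, 11 were higher and 0 lower, with a median of 1.12. Dnah6, an axonemal dynein heavy chain, had 3.63 ± 1.04 and Cfap43 had 1.58 ± 0.56. Against these lists the 13 of 35 IFT and BBSome genes may be set, with the median of 1.05. The difference between lists was not tested.

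Within the 35 genes, level and motif were set against the fold change in PNx as a description. The 10 genes of highest mean CPM had a median log2 fold change of 0.73 and 2 of them were at an unadjusted p-value under 0.05, and the other 25 had 1.16 and 11. The 28 genes without an opposite-strand partner had a median of 1.15 and the 7 with a partner 0.59. The 13 genes with the half-site in the promoter had a median of 1.16, with 6 at that level, and the 18 without it 0.75, also with 6. Bbs1, with a full X-box, was at -0.44, and Ttc21b and Kif3b, without the half-site in the window, were at 2.13 and 1.96.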

How the data were processed

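Raw counts per gene of 24 libraries were deposited by the authors, who trimmed reads with Trimmomatic 0.38, aligned them to GRCm38 with HISAT2 2.1.0 and counted them with GenomicAlignments. Neither the strand setting nor the annotation release is stated there. FPKM values deposited by the authors served for levels and as an alternative. Symbols came from GENCODE M21, in which 54165 of 54232 identifiers were found. Genes with more than 10 counts were tested with edgeR 4.0.16 in R 4.3.3 (TMM scaling, robust quasi-likelihood F-test, 1 fit of 4 group means, 6 contrasts), and a BH-adjusted p-value under 0.1 was required. SE is the absolute log2 fold change over the square root of F. The biological coefficient of variation was 71.4%. P-values measure the spread between the mice sampled. CPM is scaled by TMM, and log2 CPM has a prior count of 2. No pair of libraries within a group agreed within sampling noise (lowest chi-square per degree of freedom 1.57), and the fit was tested on simulated data.

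The genes and lists were chosen with earlier results of these data known. Values are named for the 10 genes of smallest p-value in PNx against Control, the 3 of smallest in PNx+NaKtide against PNx, NaKtide against Control and the interaction, the 5 of highest and 3 of lowest FPKM, the most counted of each role and the 2 of smallest p-value per further list. Others are named to show a pattern, after their values were seen. Alternatives were other scalings and filters, DESeq2 1.42.0, limma 3.58.1 voom and limma on FPKM, a replicate block, the compared groups only, an adjusted p-value under 0.05 and leaving out libraries. Counts at an unadjusted p-value under each alternative were added after the data were seen.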

Additional observations from a re-analysis of the deposited data

Results flagged for a closer look

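Single libraries stood far from the other 5 of their group, by Dixon's criterion, in 4 of 84 sets of values tested, and chance gives about 1 in 20. Kif3b was at 8.36 CPM in Control replicate 1, where the next Control library had 3.50. Mkks was at 2.26 CPM in PNx replicate 6, where the next had 0.785. Bbs7 was at 6.43 CPM in PNx+NaKtide replicate 3, where the next had 2.79. Dync2h1 was at 3.90 CPM in PNx+NaKtide replicate 2, where the next had 1.43. The last 3 rest on few counts. In PNx the values of Ift81, Bbs9 and their like were not set apart by this criterion, since 3 libraries and not 1 were high.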

How the results depend on the processing

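In PNx against Control the number of genes called (0) became 22 with DESeq2 size factors, 12 with library totals and 6 with filterByExpr (17 genes tested), all higher. Of all genes, 30.5%, 13.5% and 14.5% were called higher there, in that order. DESeq2 called 24, all higher, against 26.3% of all genes called higher. Voom called 25, of which 23 were higher, against 32.6% of all genes, and 2 lower, against 30.9%. Without PNx replicate 6 and NaKtide replicate 6 the number was 9 of 34, all higher, against 15.4%. It was 0 to 17 when libraries were left out singly (17 without PNx replicate 4, 13 without replicate 5 and 7 of 34 without replicate 6, against 23.1%, 16.2% and 11.1% of all genes). The median was 0.85 to 1.32 with single libraries left out and 0.0644 without PNx 1, 2 and 3. In PNx+NaKtide against PNx, DESeq2 called 4, all lower, against 4.76% of all genes called lower. Voom called 15 there, all lower, against 18.6%. The median was -1.22 to -0.61, and 0.0697 without PNx 1, 2 and 3. In the interaction voom called 6, all lower, against 9.40% of all genes. Its median was -1.21 to -0.68, and 0.20 without PNx 1, 2 and 3. In the other 3 contrasts 0 of the 35 genes were called under each alternative run. Of all genes, at most 0.896% were called there in one direction (voom, lower in PNx+NaKtide against Control). The cause of these differences was not tested.

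Signs of single genes turned as follows. In PNx against Control without PNx 1, 2 and 3, the log2 fold change was -0.15 for Dync2h1, -1.33 for Kif17, -0.0392 for Kif3b, -0.64 for Ift140, -0.17 for Ttc21b, -0.38 for Wdr35, -0.87 for Ift74 and -1.13 for Traf3ip1. In PNx+NaKtide against PNx without them it was 0.29 for Bbs9, 0.28 for Dync2h1, 0.87 for Kif17, 1.10 for Kif3b, 1.49 for Ift140, 0.40 for Ttc21b, 1.15 for Wdr35, 0.10 for Cluap1, 0.87 for Ift74, 0.16 for Ift81 and 1.45 for Traf3ip1. Bbs1 was 0.0123 with DESeq2 size factors, 0.0187 with DESeq2, 0.0136 on log2(FPKM + 1) and 0.19 on log2(FPKM + 0.1) in PNx against Control, where Mkks was -1.09 with voom and -0.0252 with the replicate block, and Ift20 was -0.0415 to 0.24 with single libraries left out (below 0 without Control replicate 4). In PNx+NaKtide against PNx, Bbs2 was -0.11, -0.0942, -0.0513 and -0.0490 under the settings that turned Bbs1, in that order, Mkks was 0.49 and Ift20 0.0244 with voom, and Ift20 was 0.0038 without PNx replicate 5.

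The labels do not state that equal replicate numbers pair the mice. Deviations of libraries of equal number correlated above 0.1 in 19 of 36 pairs (-0.59 to 0.71). This cannot settle whether such libraries shared a batch. With the replicate block 0 of the 35 genes were called in each contrast, and at most 0.00766% of all genes in one direction. In PNx against Control the median was then 0.94, with 7 genes (20%) at an unadjusted p-value under 0.05, against 20.3% of all genes. Depth limits these values, since 3 counts are 0.739 to 5.91 CPM, depending on the library.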
